A study of Rattus norvegicus with 12 samples.

Results

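The 7 protein-coding genes of the rat mitochondrial genome that encode subunits of respiratory complex I were examined: Mt-nd1 (ENSRNOG00000030644), Mt-nd2 (ENSRNOG00000031033), Mt-nd3 (ENSRNOG00000033615), Mt-nd4 (ENSRNOG00000029707), Mt-nd4l (ENSRNOG00000031053), Mt-nd5 (ENSRNOG00000029971) and Mt-nd6 (ENSRNOG00000029042). They were chosen by identifier, and all 7 were among the 32883 genes of the count table. Samples were T9 spinal cord from Sprague Dawley rats in 3 groups of 4 libraries. The first group had no injury, the second was taken 5 days after a hemisection at T9, which cuts one side of the cord, and the third was taken 5 days after the same injury in animals that also received epidural electrical stimulation over L2 to S1. These groups are called uninjured, injured and stimulated. The labels name no transgene, sham operation or vehicle, and leave it unsaid which libraries came from separate animals. The p-values below therefore cover only the spread among the libraries, which may be technical. The study asked what stimulation below the lesion does to the transcriptome at the lesion.

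Complex I, or NADH:ubiquinone oxidoreductase, is the entry enzyme of the respiratory chain. It passes electrons from NADH to ubiquinone and pumps protons across the inner mitochondrial membrane. Its membrane arm is built around the mitochondrially encoded subunits, and its other subunits come from nuclear genes and are imported. ND2, ND4 and ND5 are the antiporter-like subunits of the proton-pumping arm. ND1 helps to form the ubiquinone channel where the membrane arm meets the NADH-oxidising arm, and ND3 has a loop at that junction which moves when the enzyme switches between active and resting forms. ND4L and ND6 are small helical subunits between the junction and the pumping subunits. Mitochondrial genes are transcribed as long RNAs from both strands and cut apart afterwards. Mt-nd6 is the only one of these genes on the light-strand transcript, and in human cells its mRNA has been described as lacking the poly(A) tail that the others carry. Mt-nd4l and Mt-nd4 share a single mRNA in which Mt-nd4 lies at the 3' end. Neurons of the cord rely heavily on respiration, and loss of complex I activity is well known after spinal cord injury.

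The method, CEL-Seq2, takes 3'-end tags of transcripts with a poly(A) tail and attaches a short random identifier to each molecule. If Mt-nd6 mRNA lacks that tail in the rat too, its counts may not follow the level of that mRNA. What the Mt-nd6 tags stand for was not tested. Library totals ran from 204836 to 553986 counts, with group means of 332304 ± 89069 for uninjured, 465915 ± 78507 for injured and 260248 ± 46105 for stimulated libraries (SD, 4 per group). The highest count of a library was 4059 to 4094 over the 12 libraries, just below the number of different identifiers that 6 bases allow. Whether reads were collapsed by such identifiers is not stated. Levels are given as CPM, the count relative to the library's total over tested genes after TMM scaling. Collision-corrected values replace each count by the number of molecules that would on average occupy that many identifiers, if all are used equally. On the main axis of variation between libraries (52.4% of the variance of log2 CPM), injured replicate 1 scored -0.025, between the uninjured libraries (-56.9 to -47.4) and the other injured and stimulated ones (20.2 to 34.4). The lists of nuclear complex I subunits, other mitochondrial genes and cell type markers could not be applied, since 0 identifiers were paired with names, so the tissue label was not checked against markers and cell makeup was not analysed here. In bulk tissue, fewer cells of a type and less RNA per cell cannot be told apart. Nuclear copies of mitochondrial sequence can share reads with these genes, and the handling of such reads is not given in the labels or notes.

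The complex I genes spanned the whole range of counts. Mt-nd1, Mt-nd2, Mt-nd4 and Mt-nd5 had means of 3105, 2833, 2386 and 1684 counts per library, and Mt-nd1 stood between the 2nd and the 6th highest count in every library. Mt-nd3 had a mean of 300.4 counts, Mt-nd6 of 73.2 and Mt-nd4l of 2.67. These are numbers of tags, not scaled to transcript length, so they do not rank the transcripts. Together the 7 genes held 3.41% ± 0.779 of all counts of uninjured libraries, 2.54% ± 0.308 of injured and 3.17% ± 0.450 of stimulated ones (SD, n = 4 for each value). With collision-corrected counts the shares were 5.14% ± 1.55, 4.11% ± 0.723 and 3.86% ± 0.799, so stimulated cord lay above injured cord on the deposited counts and below it on the corrected ones.

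**Figure D1:**
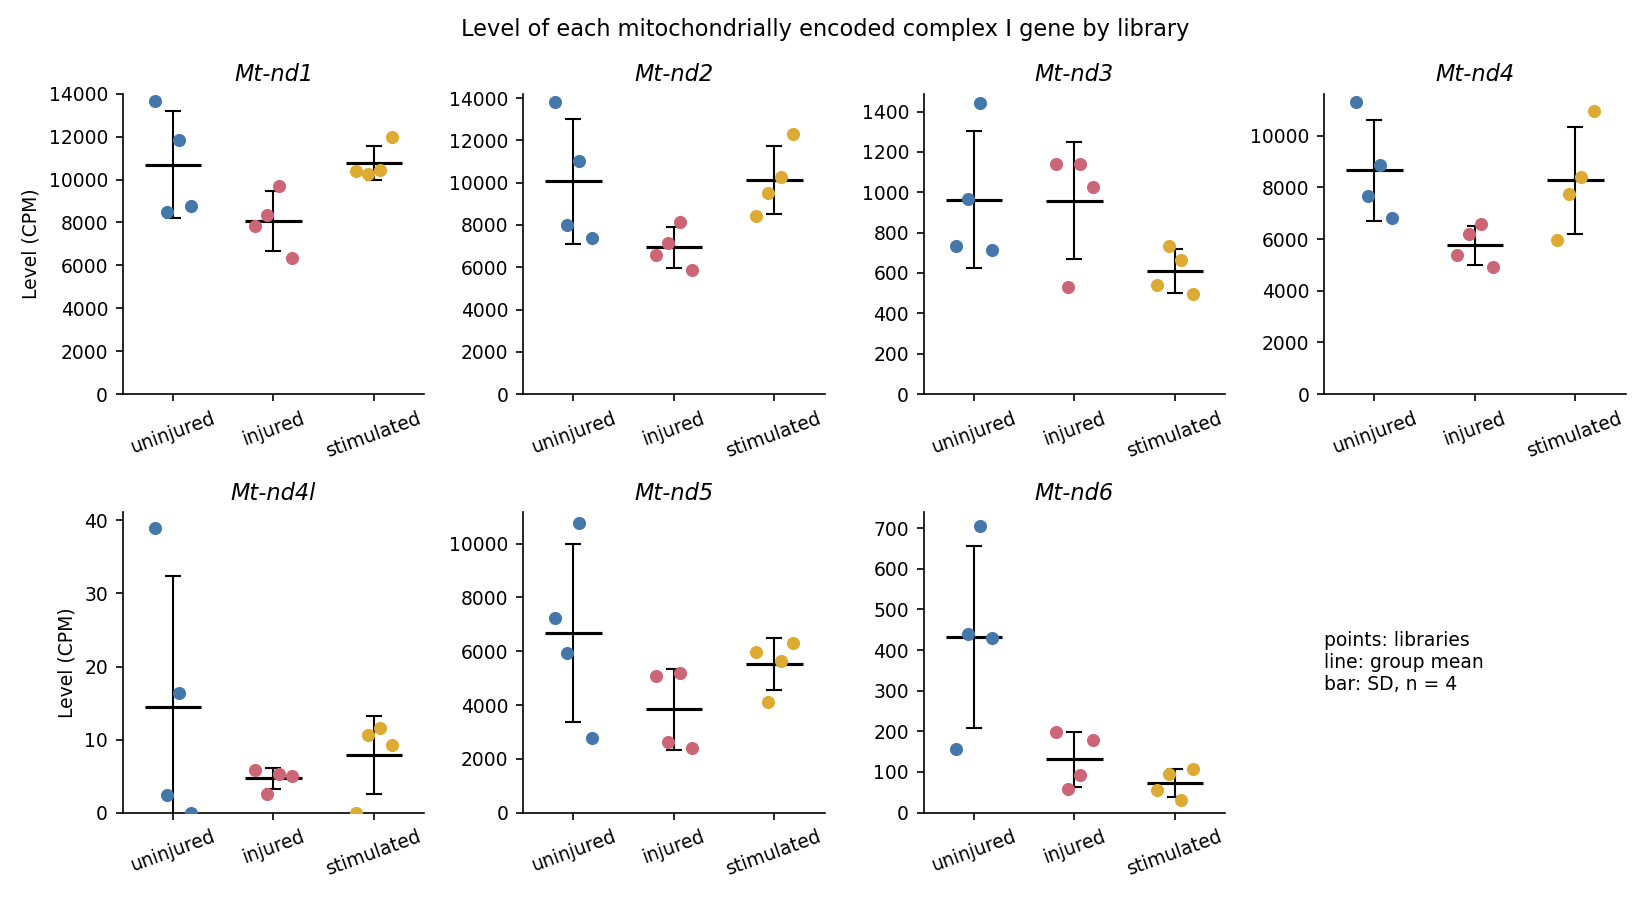
Level (CPM, y axis from 0, scales differ between genes) of each of the 7 genes in the 12 libraries (points), with group means (lines) and SD (bars, n = 4 each). Mt-nd6 lay between 156 and 706 CPM in uninjured libraries and between 30.7 and 107 CPM in stimulated ones. Of the tested genes, Mt-nd4 alone had every injured library below every uninjured one.

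Counts of the abundant genes lay at different distances from that number of identifiers. Mt-nd1 reached 97.1% of it in injured replicate 1 (3978 counts) but 44.8% in stimulated replicate 1 (1835 counts). The corrected value was 3.65 times the count in the former and 1.33 times in the latter. Library totals differed by a ratio of 2.70 over the 12 libraries, while counts of Mt-nd1 differed by 2.17 and those of Mt-nd2 by 2.33. Counts of Mt-nd4 and Mt-nd5 differed by more than the totals, by 3.03 and 4.51. Within groups, log2 CPM of Mt-nd1 changed by -0.47 per doubling of the library total, that of Mt-nd2 by -0.35 and that of Mt-nd4 by -0.21, against a median of 0.061 over the 5285 genes tested. For the 22 other genes whose mean count exceeded 1024 the median was -0.36. Mt-nd5 stood at 0.025. Mt-nd3 and Mt-nd6 are far from the limit (at most 14.8% and 5.25% of the number of identifiers), and their correction was at most 1.08-fold and 1.03-fold. For these genes the level went up with depth, by 0.83 for Mt-nd3 and 1.35 for Mt-nd6. The latter slope was 0.79 without uninjured replicate 1 and 1.20 to 1.90 without any other single library except injured replicate 2, where it was 1.09.

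**Figure D2:**
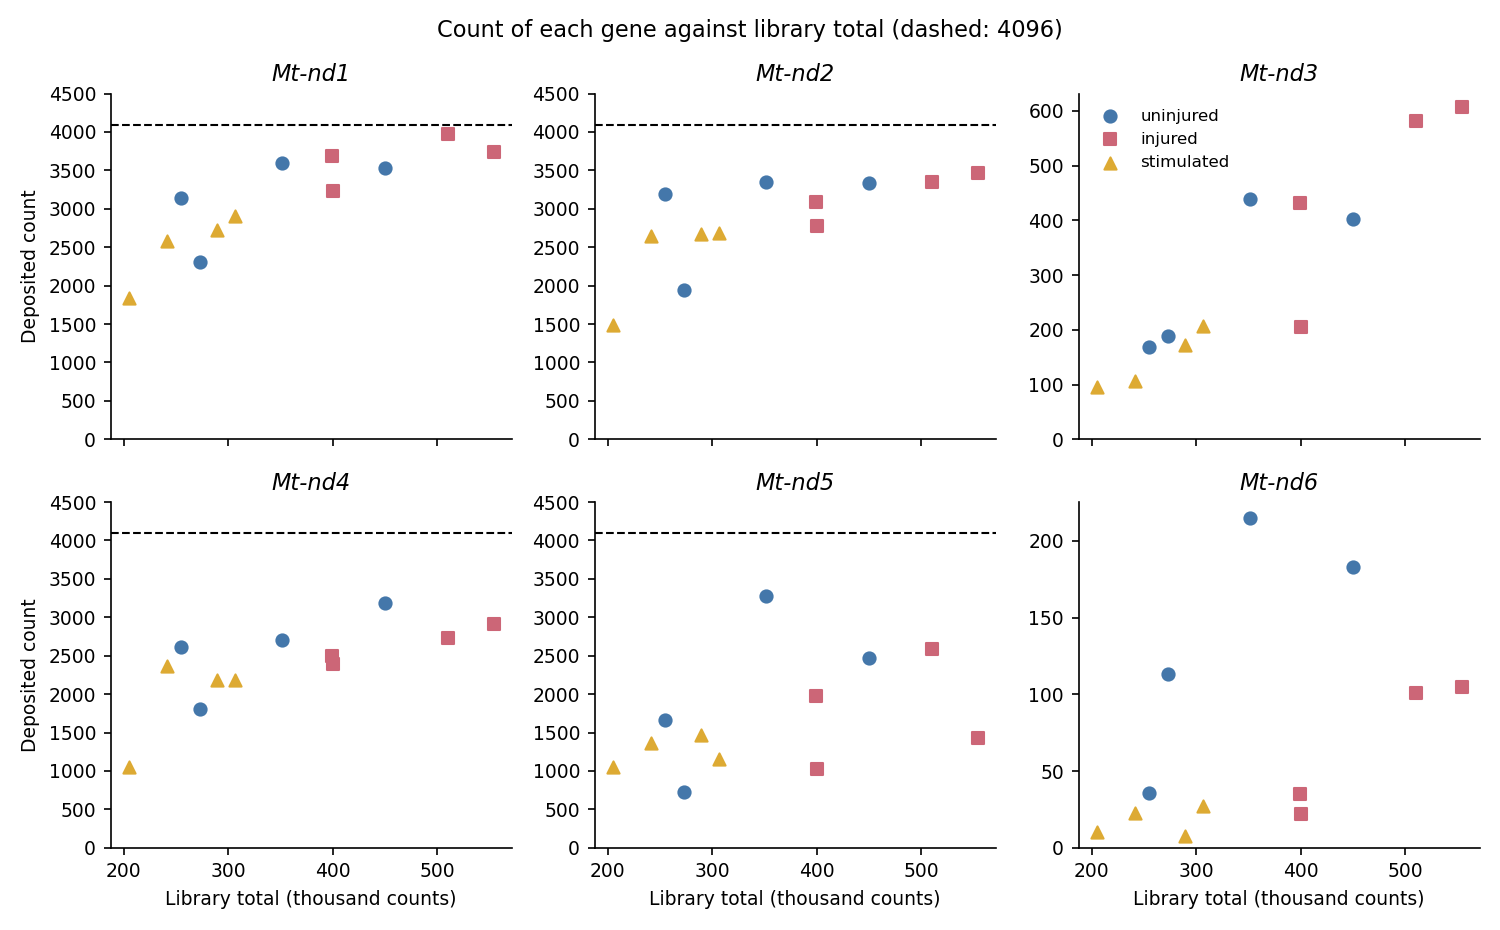
Deposited count (y axis) against library total (x axis) for the 6 tested genes, 1 point per library, with the number of identifiers of 6 bases as a dashed line where counts come near it. Mt-nd1 flattens toward the line, up to 3978 counts, while Mt-nd6 had 36 and 113 counts in uninjured replicates 1 and 4 and 8 to 27 counts in the stimulated libraries, which had totals of 204836 to 306186.

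The first comparison asked how these genes stood in the lesioned segment 5 days after hemisection. Mt-nd6 was lower in injured cord, by 3.27-fold, and was the only one of the 6 tested genes to pass the threshold. The other 5 had log2 fold changes between -0.80 and -0.0077, all below 0, and none passed. Mt-nd4l was too scarce to test. Of all tested genes, 32.0% passed in this comparison and 15.2% passed as lower (quasi-likelihood test of edgeR, adjusted p by Benjamini-Hochberg under 0.05). A share of 1 in 6 is close to that background. The median log2 fold change of the 6 genes was -0.56, against -0.0037 over all genes and -0.44 over the 22 other genes whose mean count exceeded 1024. With collision-corrected counts these medians were -0.58, -0.020 and -0.33.

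Among the pumping subunits, Mt-nd4 was at 11318, 7652, 8888 and 6837 CPM in uninjured replicates 1 to 4. In injured replicates 1 to 4 it was at 5367, 6183, 6581 and 4927 CPM. Every injured library lay below every uninjured one, a pattern that 13.5% of all genes showed in that direction. The log2 fold change was -0.59 (SE 0.26, edgeR adjusted p = 0.0961), short of the threshold. DESeq2 put it past the threshold (log2 fold change -0.61, adjusted p = 0.0336). With collision-corrected counts the groups overlapped, at 7572 to 14952 CPM in uninjured and 7119 to 8320 CPM in injured cord (log2 fold change -0.63, SE 0.32, edgeR adjusted p = 0.149).

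Mt-nd2 was at 13820, 8007, 11010 and 7391 CPM in the uninjured libraries and at 6590, 7169, 8135 and 5870 CPM in the injured ones. The highest injured library exceeded the 2 lowest uninjured ones, and the log2 fold change of -0.53 (SE 0.26) did not pass (edgeR adjusted p = 0.130). The SD of log2 CPM within groups, pooled over the 3 groups, was 0.61 for Mt-nd5 and 0.25 to 0.30 for Mt-nd1, Mt-nd2 and Mt-nd4. It was at 7237, 5941, 10757 and 2756 CPM in uninjured and at 5088, 2644, 5195 and 2414 CPM in injured cord. Uninjured replicate 4 lay inside the injured range, and the log2 fold change was -0.80 (SE 0.37, edgeR adjusted p = 0.108). Without uninjured replicate 4 it was -1.07 and passed (edgeR adjusted p = 0.0200), and without uninjured replicate 3 it was -0.49 (edgeR adjusted p = 0.350).

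At the junction with the NADH-oxidising arm, Mt-nd1 was at 13642, 8465, 11831 and 8773 CPM in uninjured and at 7821, 8353, 9719 and 6332 CPM in injured cord. The groups overlapped, and the log2 fold change was -0.41 (SE 0.25, edgeR adjusted p = 0.229, 95% interval from limma-voom -0.85 to 0.13). With collision-corrected counts it shrank to -0.018 (SE 0.33). Mt-nd3, which the limit barely touches, was at 733, 967, 1442 and 714 CPM in uninjured and at 1142, 530, 1138 and 1026 CPM in injured cord. Its group means were 964 ± 339 and 959 ± 291 CPM (SD, n = 4 each), and the interval of its log2 fold change was -0.68 to 0.59 (limma-voom, 95%). Injured replicate 2 was the lowest of these 8 libraries and the other 3 injured ones lay inside the uninjured range.

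Mt-nd6 stood at 156, 439, 706 and 429 CPM in uninjured replicates 1 to 4, from 36, 183, 215 and 113 counts. In injured replicates 1 to 4 it was at 199, 56.9, 92.2 and 178 CPM, from 101, 22, 35 and 105 counts. Uninjured replicate 1 lay inside the injured range, and the other 3 uninjured libraries were above every injured one. The log2 fold change was -1.71 (SE 0.45, edgeR adjusted p = 0.00762). It passed without each library in turn, with log2 fold changes of -1.99 to -1.39 and edgeR adjusted p of 0.00249 to 0.0294, and it was -1.98 without injured replicate 1. Over the 14 other settings adjusted p was 3.73e-05 to 0.0136. Injured libraries had the largest mean total, and the CPM of Mt-nd6 had a positive slope on depth within groups. That slope runs opposite to the difference here, where the deeper group had the lower level. Thinned to equal totals, its log2 fold change was -1.78 (edgeR adjusted p = 0.00604). Thinning keeps each gene's share of its library on average, so it cannot remove such a slope. The part of depth in this difference was not tested.

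Mt-nd4l summed to 15 counts over uninjured replicates 1 to 4 (9, 1, 5 and 0) and to 9 over the injured ones (3, 1, 2 and 3). Its ratio of counts per total was 0.428, with an exact Clopper-Pearson 95% interval of 0.165 to 1.04 that covers counting error only. Uninjured replicate 1 held 9 of those 15 counts. Over all 12 libraries Mt-nd4l had 0.112% of the counts of Mt-nd4, with which it shares an mRNA. A tag from the 3' end of that mRNA falls in Mt-nd4, and the part of this in the low count was not tested.

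The second comparison set stimulated against injured cord. None of the 6 tested genes passed, as in the table as a whole, where 0 of 5285 genes passed in edgeR, 1 did in DESeq2, and 491 (9.29%) had an unadjusted p under 0.05, with 0 of the 6 among them. Mt-nd1, Mt-nd2, Mt-nd4 and Mt-nd5 had log2 fold changes of 0.42 to 0.54, with a median of 0.52 against 0.51 for the 22 other genes whose mean count exceeded 1024. With collision-corrected counts these medians were 0.26 and 0.22. Mt-nd3 and Mt-nd6 had negative log2 fold changes.

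In stimulated replicates 1 to 4, Mt-nd1 was at 10396, 10273, 10457 and 11969 CPM. All 4 were above every injured library, though the log2 fold change was 0.42 (SE 0.25, edgeR adjusted p = 0.597). Mt-nd2 was at 8436, 9488, 10292 and 12289 CPM, also without overlap with injured cord (log2 fold change 0.54, SE 0.26, edgeR adjusted p = 0.538). Of all genes, 2.25% showed such a separation upward. Collision correction removed it for both: Mt-nd1 was then at 11399 to 15221 CPM in stimulated and 13472 to 23432 CPM in injured cord, with a log2 fold change of -0.36 (SE 0.33), and Mt-nd2 had 0.21 (SE 0.34).

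Mt-nd4 was at 5966, 7747, 8416 and 10957 CPM in the stimulated libraries. Stimulated replicate 1, the shallowest library of all, lay inside the injured range and the other 3 lay above it (log2 fold change 0.52, SE 0.26, edgeR adjusted p = 0.558; 0.32 when collision-corrected). Mt-nd5 was at 5988, 4111, 5653 and 6326 CPM, of which 3 exceeded every injured library (log2 fold change 0.53, SE 0.37, edgeR adjusted p = 0.643; 0.32 when corrected). The 95% intervals from limma-voom reached from -0.019 to 0.98 for Mt-nd4 and from -0.17 to 1.26 for Mt-nd5, so both 0 and increases of up to that size lie within them.

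The scarcer genes leaned the other way. Mt-nd3 was at 538, 732, 665 and 497 CPM in stimulated cord, and all 4 values lay below 3 of the 4 injured libraries (log2 fold change -0.66, SE 0.32, edgeR adjusted p = 0.541). Without injured replicate 2 it was -0.88. Mt-nd6 was at 56.7, 95.5, 30.7 and 107 CPM from 10, 27, 8 and 23 counts, overlapping injured cord (log2 fold change -0.87, SE 0.48, edgeR adjusted p = 0.585). Without injured replicate 1 it was -0.63. Stimulated libraries had the smallest mean total, and the CPM of both genes had a positive slope on depth within groups. With all libraries thinned to equal totals the log2 fold changes were -0.61 for Mt-nd3 and -0.86 for Mt-nd6 (edgeR adjusted p = 0.550 and 0.576). Here too thinning leaves the shares as they were on average, so the part of depth was not tested. Mt-nd4l had 8 counts (0, 3, 3 and 2), a ratio to injured cord of 1.59 with an interval of 0.534 to 4.65 for counting error only.

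**Figure D3:**
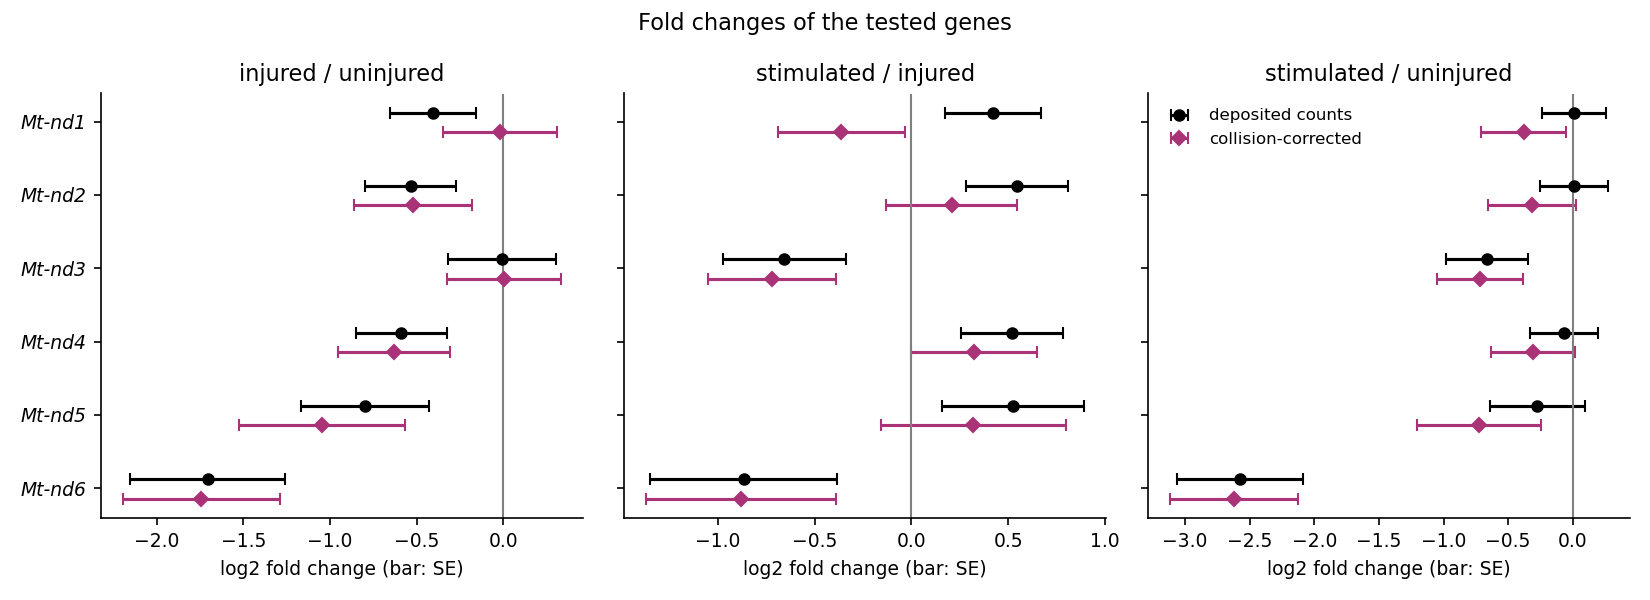
Log2 fold change (x axis, bar: SE) of the 6 tested genes in the 3 comparisons, from deposited counts (circles) and collision-corrected counts (diamonds). Mt-nd6 is at -1.71 and -2.57 against uninjured cord on deposited counts, and Mt-nd1 in stimulated against injured cord moves from 0.42 to -0.36 with the correction.

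Stimulated cord was last set against the uninjured libraries, which also served as controls of the first comparison. Mt-nd6 was 5.96-fold lower in stimulated cord, and again it alone of the 6 tested genes passed, where 34.6% of all genes passed and 16.2% passed as lower. All 4 stimulated libraries lay below all 4 uninjured ones, as for 15.1% of genes. The log2 fold change of Mt-nd6 was -2.57 (SE 0.49, edgeR adjusted p = 0.000634). Leaving out each library gave log2 fold changes of -2.89 to -2.29 with edgeR adjusted p of 0.00023 to 0.00311, and over the 14 other settings adjusted p was 6.69e-11 to 0.00115. Uninjured replicates 1 to 4, with totals of 254762, 450114, 351524 and 272817, were at 156, 439, 706 and 429 CPM. Stimulated replicates 1 to 4, with totals of 204836, 306186, 288980 and 240992, were at 56.7, 95.5, 30.7 and 107 CPM. The mean total was 260248 in stimulated and 332304 in uninjured libraries. Log2 CPM of Mt-nd6 rose by 1.35 per doubling of the total within groups, so the shallower group had the lower level. The part of depth in this difference was not tested.

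Mt-nd1 and Mt-nd2 had nearly equal mean levels in stimulated and uninjured cord. Mt-nd1 averaged 10774 ± 801 and 10678 ± 2493 CPM, with a 95% interval of the log2 fold change of -0.44 to 0.53 (limma-voom). Mt-nd2 averaged 10126 ± 1630 and 10057 ± 2965 CPM, with an interval of -0.47 to 0.54 (SD, n = 4 each). Collision-corrected log2 fold changes were -0.38 and -0.31. The log2 fold change was -0.068 for Mt-nd4 and -0.27 for Mt-nd5 (SE 0.26 and 0.37, edgeR adjusted p = 0.865 and 0.606). After correction these became -0.31 and -0.73, and all 6 tested genes were below 0, with Mt-nd6 the only one past the threshold. Mt-nd3 had -0.66 (SE 0.32, edgeR adjusted p = 0.117), with 3 of 4 stimulated libraries below every uninjured one. Mt-nd4l had a ratio of 0.681 with a counting interval of 0.250 to 1.71.

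Ratios between genes of a library do not depend on its scaling. Within groups, the log2 ratio of Mt-nd2 to Mt-nd1 had an SD of 0.11, against 0.25 and 0.30 for the log2 CPM of Mt-nd1 and Mt-nd2 taken singly. The SD was 0.19 for Mt-nd4, 0.48 for Mt-nd5, 0.51 for Mt-nd3 and 0.98 for Mt-nd6, all relative to Mt-nd1. With collision-corrected counts the SD of the log2 ratio was 0.24 for Mt-nd2 and 0.33 for Mt-nd4. The SD values of single genes given here are from deposited counts only, so they are not a measure to set beside these. Relative to Mt-nd1, Mt-nd6 had 1.14% to 5.97% of the counts among uninjured libraries, 0.681% to 2.81% among injured ones and 0.294% to 0.930% among stimulated ones. With collision-corrected counts, which raise Mt-nd1 most, these ranges were 0.604% to 3.37%, 0.347% to 1.06% and 0.179% to 0.567%, and the mean log2 ratio differed by -0.53 between stimulated and injured cord, against -1.28 on deposited counts. On deposited counts, stimulated and uninjured libraries did not overlap in this ratio (two-sided exact permutation test, p = 0.0286, the lowest value that groups of 4 allow, and 0.343 after adjustment over 15 comparisons). None of the 15 comparisons of 5 genes relative to Mt-nd1 had an adjusted p below 0.343 on deposited counts or below 0.161 on corrected ones. An adjusted p under 0.05 would need most of the 15 comparisons to reach that lowest value of 0.0286. These tests could therefore hardly pass, and no conclusion about the ratios is drawn from them.

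**Figure D4:**
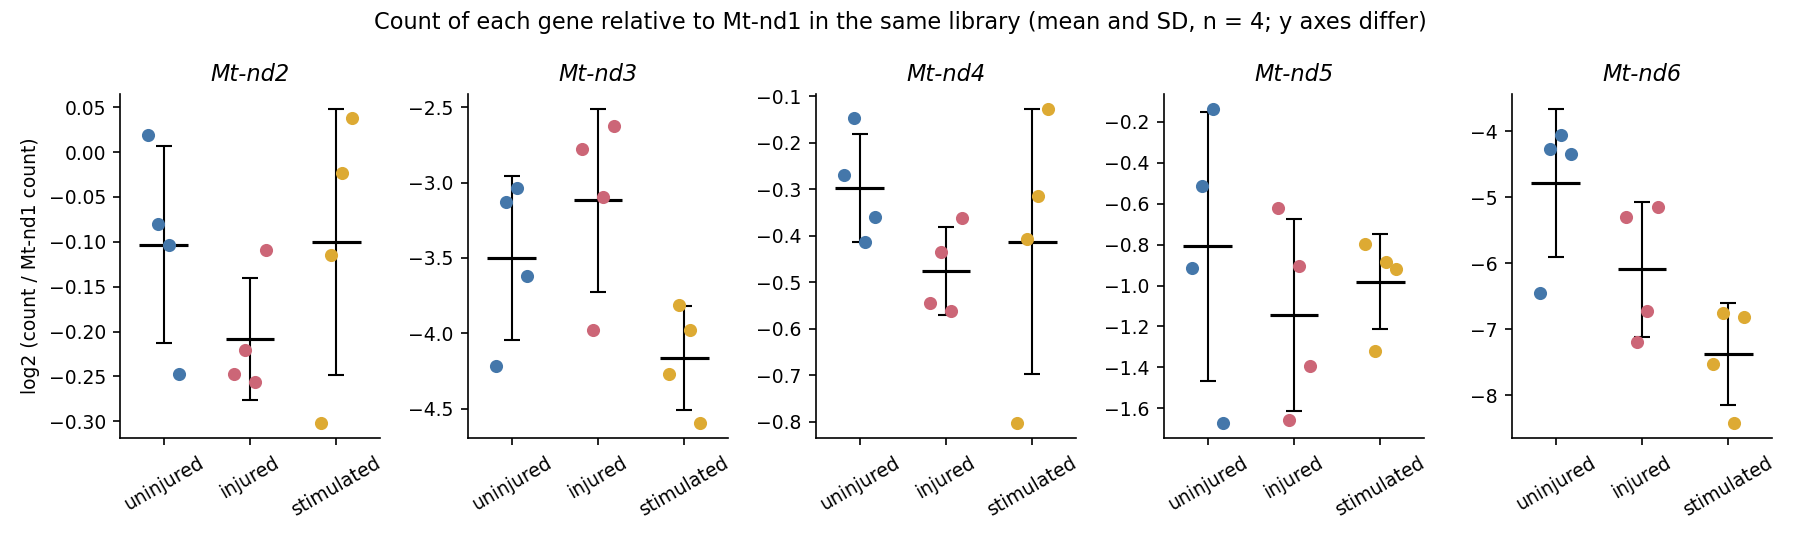
Log2 of the count of each gene over that of Mt-nd1 in the same library (y axis, scales differ), with group means (lines) and SD (bars, n = 4 each). For Mt-nd6 the group means are -4.78 for uninjured, -6.09 for injured and -7.37 for stimulated cord (-5.75, -7.49 and -8.01 on collision-corrected counts, not plotted), and the uninjured and stimulated libraries do not overlap.

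Mt-nd6 lies next to Mt-nd5 on the opposite strand, and no source used here gives the strand setting of the counting, so reads from the 2 strands cannot be told apart at this place. Mt-nd6 counts were 2.16%, 7.39%, 6.56% and 15.6% of those of Mt-nd5 in uninjured replicates 1 to 4. They were 3.90%, 2.15%, 1.77% and 7.36% in the injured libraries and 0.946%, 2.32%, 0.544% and 1.69% in the stimulated ones. This share was highest in uninjured replicate 4, the library with the fewest Mt-nd5 counts (726). Its difference between stimulated and uninjured cord (-2.41 in log2) had an exact two-sided permutation p of 0.0571 (adjusted p = 0.171 over 3 comparisons), and 3 of the 4 uninjured libraries exceeded every stimulated one.

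Likeness of the 6 tested genes to each other over the libraries is given here as a description. The Pearson correlation of each gene's log2 CPM with the mean of the other 5, over 12 libraries of 3 groups that share depth and scaling, was 0.25 for Mt-nd6, 0.35 for Mt-nd3, 0.43 for both Mt-nd1 and Mt-nd2, 0.48 for Mt-nd4 and 0.60 for Mt-nd5. Of 3107 other genes with a mean count of 20 or more, the profile closest to the mean log2 CPM of the 6 was that of ENSRNOG00000009987 (r = 0.928 over the 12 libraries), followed by ENSRNOG00000014791 (r = 0.895). Mt-nd6 and Mt-nd5, with the widest spread within groups (SD of log2 CPM 0.82 and 0.61), weigh most in that mean. ENSRNOG00000009987 had log2 fold changes of -1.07 in injured and -0.98 in stimulated against uninjured cord (SE 0.28 and 0.29, edgeR adjusted p = 0.00674 and 0.0137). ENSRNOG00000014791 had -1.85 and -1.66 (SE 0.35 for each, edgeR adjusted p = 0.000744 and 0.00144). In stimulated against injured cord these 2 genes had 0.089 and 0.19 (SE 0.29 and 0.35, edgeR adjusted p = 0.941 and 0.877). The median of the 6 tested complex I genes there was 0.47 on deposited counts and -0.077 on collision-corrected ones. Both genes were picked for likeness over these same libraries, so their fold changes are not independent of the choice.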

How the data were processed

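The values are raw counts, whole numbers for each gene in each of 12 libraries, deposited as 1 table and made by CEL-Seq2 per the labels' protocols. Per the submitters' processing notes, the tools were HISAT2 2.0.4 and HTSeq 0.6.0, and the build was Rnor_6.0. Whether identifiers were collapsed, the annotation release and the strand setting are not given in the labels or notes. Libraries of a group differed by more than sampling noise (chi-square per df 2.95 to 10.0 over pairs).

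Genes were kept by filterByExpr (5285 genes with 92.6% to 93.9% of counts) and scaled by TMM. An edgeR 4.0.16 quasi-likelihood model (R 4.3.3, robust) was fitted with a mean for each group to the 12 libraries (9 residual degrees of freedom). P-values were adjusted by Benjamini-Hochberg over all genes tested, with a threshold of 0.05. SE is the size of the log2 fold change over the square root of F. Intervals are from limma 3.58.1 (voom with sample weights), and DESeq2 1.42.0 was an alternative. Log2 CPM had a prior count of 2. Figures used matplotlib 3.10.9.

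All 7 genes are named whatever their values, as are the 2 other genes most correlated with them. Members, lists and alternatives were chosen with earlier results of these data known. Ratios between genes and 2 scalings without genes over 1024 counts were added after seeing the data. Alternatives set earlier were other library scalings and filters, 2 groups only, a replicate block, other tools, collision correction, thinning to 204836 counts and leaving out each library.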

Additional observations from a re-analysis of the deposited data

Results flagged for a closer look

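Mt-nd1 was at 11969 CPM in stimulated replicate 4, apart from the other 3 stimulated libraries at 10273 to 10457 CPM. The gap to the nearest library was 0.892 of the group's range, over Dixon's 95% critical value for 4 samples. It was the only one of 24 groups examined (the 7 genes and their summed share in each of the 3 groups), where chance gives about 1.2. The other 3 libraries lay unusually close together, and the SD of the group was 801 CPM, the smallest of the 3 groups for this gene.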

How the results depend on the processing

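The call of Mt-nd6 as lower in injured and in stimulated cord than in uninjured cord, and the lack of any call among the 6 tested genes between stimulated and injured cord, held under every alternative run. DESeq2 called 2 of the 6 genes between injured and uninjured cord (Mt-nd4 added), and leaving out each library gave 1 to 2 (Mt-nd5 added without uninjured replicate 4). Over all genes, a minimum mean count of 20, with fewer genes tested, gave 1123 calls for injured against uninjured cord. For stimulated against injured cord there were 28 calls with no filter on low counts, 1 with DESeq2, and 0 to 1 when each library was left out. Collision correction moved the summed share to 5.14%, 4.11% and 3.86% in uninjured, injured and stimulated cord, and by its construction it can only raise counts.

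Some log2 fold changes turned sign. That of Mt-nd3 in injured against uninjured cord (-0.0077) became 0.13 with total counts, 0.063 with no filter, 0.053 with only 2 groups, 0.026 with the replicate block, 0.0030 with collision correction and 0.014 with correction and library sizes without genes over 1024 counts. Without single libraries it was -0.14 to 0.23. Mt-nd1 in stimulated against injured cord (0.42) became -0.36 with collision correction and -0.35 with correction and those library sizes. In stimulated against uninjured cord, Mt-nd1 and Mt-nd2 (0.013 and 0.010) became -0.015 and -0.015 with total counts, -0.042 and -0.041 with no filter, -0.017 and -0.014 after thinning, -0.38 and -0.31 with collision correction, and -0.36 and -0.29 with correction and those library sizes. Mt-nd2 was -0.00010 with library sizes without the 10 most abundant genes. Without single libraries, ranges were -0.091 to 0.11 for Mt-nd1, -0.13 to 0.16 for Mt-nd2, -0.23 to 0.066 for Mt-nd4 and -0.55 to 0.012 for Mt-nd5. The cause of these shifts was not tested.

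The labels give the groups the same replicate numbers but do not say that a number marks a shared animal or day. Correlations of same-numbered libraries' deviations ran from -0.34 to 0.43. Of 8 libraries in each comparison, 4, 4 and 2 correlated best with their own number. With the replicate as a block, 1801, 0 and 1911 genes were called in the 3 comparisons, against 1692, 0 and 1826 without it, and no call of a complex I gene changed. The identifier limit restricts what can be said of Mt-nd1, Mt-nd2, Mt-nd4 and Mt-nd5, and low counts restrict Mt-nd6 in stimulated cord (8 to 27 counts) and Mt-nd4l.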

Other observations

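Within the summed counts of the 7 genes, Mt-nd1 made up 28.8% ± 2.80 of uninjured, 31.3% ± 1.59 of injured and 30.7% ± 2.14 of stimulated libraries (mean ± SD of 4). Mt-nd5 made up 17.2% ± 5.83, 14.6% ± 4.20 and 15.7% ± 2.66. Mt-nd3 made up 2.63% ± 0.752, 3.78% ± 1.21 and 1.76% ± 0.447, and Mt-nd6 made up 1.23% ± 0.603, 0.535% ± 0.318 and 0.204% ± 0.091. With collision-corrected counts, in the same order of groups, the mean shares were 32.8%, 42.3% and 33.3% for Mt-nd1 and 14.7%, 9.91% and 13.2% for Mt-nd5. They were 1.58%, 1.998% and 1.24% for Mt-nd3 and 0.734%, 0.262% and 0.141% for Mt-nd6. No test was made of these shares.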
